A study of Mus musculus with 12 samples.

Results

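The genes described here are *Hspa5*, *Hsp90b1*, *Dnajb9*, *Herpud1*, *Xbp1*, *Atf4*, *Ddit3*, *Trib3*, *Chac1* and *Asns*, 10 of the 52459 genes in each deposited count table. They were taken by symbol as genes of the unfolded protein response and the integrated stress response. In the unfolded protein response, the sensors PERK, IRE1 and ATF6 respond to unfolded protein in the endoplasmic reticulum (ER). PERK and the other eIF2 kinases of the integrated stress response phosphorylate eIF2, which lowers general translation and favors translation of *Atf4* mRNA. IRE1 cuts *Xbp1* mRNA to make its spliced form, which counts per gene cannot show.

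RNA of male mice aged 4 months was sequenced from the forebrain with the midbrain (F/M) and from the cerebellum (Cb), with 3 libraries in each of 4 groups. The T mice were homozygous for a gene-targeted disruption of *Tpp1*, the gene mutated in classic late-infantile neuronal ceroid lipofuscinosis. The N mice were wild-type siblings from a line kept by heterozygous crosses. All were of 1 sex and 1 age, so neither could be compared. The methods of the paper describe RNA of both areas from 3 animals, taken here as 3 per genotype, so the areas may share mice. The methods do not say which library came from which mouse, and each library was treated as independent. Libraries held 21428379 to 24458189 assigned reads. Levels are CPM (counts relative to library size), scaled by TMM over all 12 libraries.

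*Tpp1* itself (chr7:105744811-105752235) stood at 112, 114 and 112 CPM in Cb-N and 28, 31 and 30 CPM in Cb-T. In F/M it stood at 94.3, 88.7 and 87.7 CPM in N and 23.9, 21.8 and 23.3 CPM in T. Every T library lay below every N library of its area, as the genotype labels state. The log2 fold changes were −1.91 (SE 0.04, edgeR adjusted p = 5.7e-35) in Cb and −1.94 (SE 0.049, adjusted p = 2.7e-16) in F/M. Markers were compared with the area labels. All 8 granule cell genes were higher in Cb-N than in F/M-N (summed 5350, 5420 and 5430 against 200, 198 and 201 CPM), and all 10 forebrain neuron genes were lower (175, 169 and 180 against 988, 961 and 1010 CPM).

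Levels of different genes were compared per kilobase of exon. In all 4 groups *Hsp90b1* was the most abundant of the 10 genes, followed by *Hspa5* and *Atf4*, and *Ddit3*, *Chac1* and *Trib3* were the least abundant. Group means in Cb-N ran from 103 CPM per kb for *Hsp90b1* and 82 for *Hspa5* to 10.4 for *Ddit3*, 1.64 for *Chac1* and 0.222 for *Trib3*. Neighbors in this order did not overlap between libraries, except *Herpud1* and *Xbp1* in F/M-T and *Herpud1* and *Asns* in Cb-T.

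In Cb-T, 2 chaperone genes (*Hspa5* and *Hsp90b1*) and *Xbp1* were lower than in Cb-N, while *Ddit3*, *Trib3*, *Chac1*, *Asns* and *Dnajb9* were higher. *Atf4* and *Herpud1* did not pass the test. In F/M-T, *Hspa5* and *Xbp1* were lower and *Ddit3* was higher, with 7 genes not called. All of these changes were below 1.5-fold except that of *Trib3* in Cb. A gene was called at an edgeR false discovery rate (FDR) below 0.1, and called a DEG if its change was also at least 1.5-fold.

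In Cb, 5 of the 10 genes were higher and 3 were lower, against 4878 (29.8%) higher and 4564 (27.9%) lower of all 16382 genes tested. The DEG criteria were met by 1 of the 10, against 1835 (11.2%) of all genes. Libraries of T and N did not overlap for 5 of the 10, 2 higher and 3 lower, against 9347 (57.1%) of all genes. The median log2 fold change of the 10 was 0.073, beside 0.012 for all genes. In F/M, 1 was higher and 2 were lower, against 2134 (12.8%) and 2407 (14.4%) of 16665 genes. None of the 10 was a DEG there, against 581 (3.49%) of all genes. Libraries did not overlap for 4 of the 10, 2 in each direction, against 6158 (37%) of all genes. The F/M median was 0.033, beside 0.0078 for all genes.

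**Figure D1:**
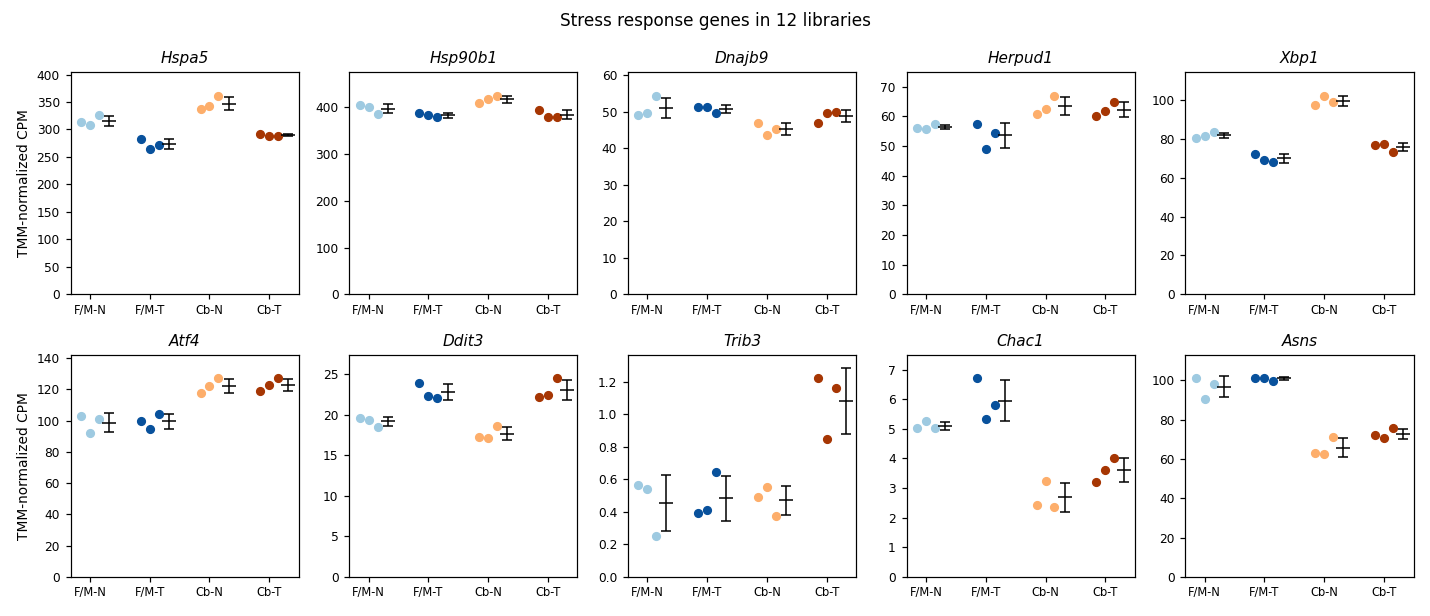
TMM-normalized CPM (linear axis from 0) of each of the 10 genes in every library of the 4 groups, with the group mean and SD beside the points. *Xbp1* lies between 97.1 and 102 CPM in Cb-N and between 73.3 and 77.1 CPM in Cb-T.

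*Hspa5* encodes BiP, the main HSP70 chaperone of the ER. It stood at 338, 342 and 361 CPM in Cb-N and 292, 289 and 288 CPM in Cb-T, and at 314, 308 and 326 CPM in F/M-N and 282, 264 and 272 CPM in F/M-T. In both areas every T library was below every N library. The fall was 15.8% in Cb (log2 fold change −0.25, SE 0.0255, adjusted p = 3.8e-11) and 11.7% in F/M (−0.18, SE 0.0326, adjusted p = 5.1e-4). *Hsp90b1* encodes GRP94, the HSP90 chaperone of the ER. Its levels were 410, 417 and 424 CPM in Cb-N, 395, 378 and 380 in Cb-T, 405, 400 and 386 in F/M-N and 388, 383 and 378 in F/M-T. The libraries were apart in Cb and overlapped in F/M. In Cb it fell by 7.01% (−0.10, SE 0.0242, adjusted p = 3.2e-4), and in F/M the log2 fold change was −0.02 (95% interval −0.0771 to 0.0396, adjusted p = 0.69). Its exons share 415 bases (10.3%) with *1810014B01Rik* on the opposite strand, and the library strand setting is not known.

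*Dnajb9* encodes ERdj4, a cochaperone of BiP. It stood at 47, 43.7 and 45.2 CPM in Cb-N and 47, 49.6 and 50 CPM in Cb-T, with N replicate 1 and T replicate 1 level. The rise in Cb was 8.89% (0.12, SE 0.0435, adjusted p = 0.016). Without Cb-N replicate 2 it was no longer called (log2 fold change 0.0915, adjusted p = 0.13). In F/M the levels overlapped, at 49.2, 49.6 and 54.3 CPM in N and 51.2, 51.4 and 49.5 in T (0.02, 95% interval −0.0747 to 0.119, adjusted p = 0.78). *Herpud1*, an ER membrane protein of ER-associated degradation, stood at 60.9, 62.6 and 66.9 CPM in Cb-N, 60, 61.7 and 65 in Cb-T, 56.1, 55.9 and 57.3 in F/M-N and 57.4, 48.9 and 54.4 in F/M-T. These libraries overlapped in both areas, with log2 fold changes of −0.01 (−0.0955 to 0.0686, adjusted p = 0.81) in Cb and −0.04 (−0.15 to 0.0634, adjusted p = 0.6) in F/M.

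*Xbp1*, the transcription factor whose mRNA is cut by IRE1, stood at 97.1, 102 and 98.9 CPM in Cb-N and 76.7, 77.1 and 73.3 CPM in Cb-T. In F/M it stood at 80.5, 81.3 and 83.3 CPM in N and 72.4, 69.3 and 68.1 CPM in T. Every T library was below every N library in both areas. It fell by 23.1% in Cb (−0.38, SE 0.0342, adjusted p = 1e-12) and by 12.5% in F/M (−0.19, SE 0.0383, adjusted p = 0.0012). In Cb the fall exceeded that in F/M (difference −0.17, SE 0.0507, adjusted p = 0.017). *Xbp1* was the only gene of the 10 whose change differed between the areas, against 4816 (27.5%) of 17482 genes. For *Hsp90b1* the difference (−0.07, adjusted p = 0.22) passed the test without Cb-T replicate 1 (adjusted p = 0.0095) or Cb-T replicate 3 (adjusted p = 0.054), with RLE factors (0.077) and for genes with a mean count of at least 50 (0.022). That of *Asns* passed without Cb-N replicate 3 (0.058) or F/M-N replicate 2 (0.091), and that of *Hspa5* without Cb-T replicate 1 (0.098) and with the mean count filter (0.1 after rounding).

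*Atf4*, the transcription factor translated more when eIF2 is phosphorylated, stood at 118, 122 and 127 CPM in Cb-N and 119, 123 and 127 CPM in Cb-T, and at 103, 92 and 101 in F/M-N and 100, 94.6 and 104 in F/M-T. Libraries overlapped in both areas, and the log2 fold changes were 0.02 (95% interval −0.0411 to 0.0877, adjusted p = 0.57) and 0.04 (−0.0515 to 0.138, adjusted p = 0.55). With library totals in place of TMM, *Atf4* was called higher in Cb (0.0657, adjusted p = 0.083). *Ddit3* encodes CHOP, a transcription factor downstream of ATF4. It stood at 17.3, 17.2 and 18.6 CPM in Cb-N and 22.2, 22.5 and 24.5 CPM in Cb-T, and at 19.6, 19.4 and 18.5 in F/M-N and 23.9, 22.3 and 22.1 in F/M-T. In each area the lowest T library exceeded the highest N library. The rise was 31.9% in Cb (0.40, SE 0.0632, adjusted p = 8.5e-7) and 21.5% in F/M (0.28, SE 0.0602, adjusted p = 0.0022). In GENCODE M21 the symbol *Ddit3* has 2 gene IDs on the same strand, which share 105 exon bases (6.13%), and which of them the count covers is not known. Exons of *Ddit3* share 68 bases (3.97%) with *Mars* on the opposite strand, and *Mars*, named for this overlap and after its values were seen, was not called in Cb (−0.04, adjusted p = 0.35).

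*Trib3*, *Chac1* and *Asns* are targets of ATF4. *Trib3*, a pseudokinase, was near the limit of detection, with 11, 12 and 8 counts in Cb-N and 29, 21 and 28 in Cb-T (0.488, 0.55 and 0.371 against 1.22, 0.845 and 1.16 CPM). Its T libraries were above its N libraries, and it was upregulated 2.29-fold (log2 fold change 1.19, SE 0.312, adjusted p = 0.0013). In F/M it stood at 0.564, 0.54 and 0.254 CPM in N and 0.394, 0.414 and 0.642 CPM in T. Those libraries overlapped (0.13, 95% interval −0.675 to 0.942, adjusted p = 0.84), and the difference between areas did not pass the test (1.08, SE 0.501, adjusted p = 0.13). The difference passed without F/M-N replicate 3 (adjusted p = 0.057), F/M-T replicate 3 (0.088) or Cb-T replicate 2 (0.099).

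*Chac1*, which degrades glutathione, stood at 2.44, 3.25 and 2.37 CPM in Cb-N and 3.2, 3.62 and 4.02 CPM in Cb-T, where T replicate 1 lay below N replicate 2. It rose by 35.9% (0.44, SE 0.156, adjusted p = 0.016). In F/M it stood at 5.03, 5.27 and 5.04 CPM in N and 6.7, 5.34 and 5.82 CPM in T. Libraries did not overlap there, but the gene was not called (0.25, 95% interval 0.0126 to 0.489, adjusted p = 0.13). It was called without F/M-T replicate 2 (adjusted p = 0.067). *Asns*, asparagine synthetase, stood at 63.2, 62.7 and 71.2 CPM in Cb-N and 72.1, 70.8 and 75.6 CPM in Cb-T, where T replicate 2 lay below N replicate 3. It rose by 12% (0.16, SE 0.0412, adjusted p = 9.1e-4). In F/M it stood at 101, 90.7 and 98.4 CPM in N and 101, 101 and 99.8 CPM in T, which overlapped (0.09, 0.00561 to 0.173, adjusted p = 0.13). It was called without F/M-N replicate 1 (adjusted p = 0.078) or replicate 3 (adjusted p = 0.086), and with library totals (adjusted p = 0.06).

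**Figure D2:**
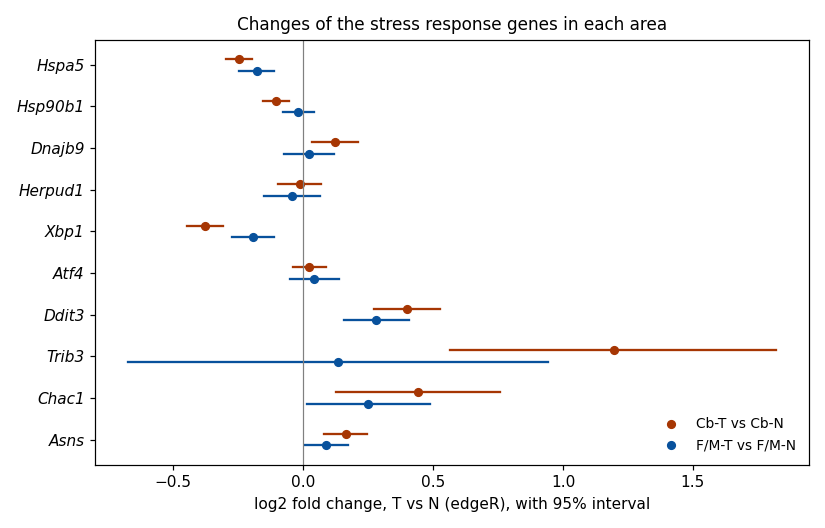
Log2 fold change (edgeR) of T against N for each of the 10 genes in Cb and in F/M, with lines for the 95% interval. *Xbp1* and *Hspa5* lie left of 0 and *Ddit3* right of 0 in both areas, and *Trib3* in Cb lies furthest right, at 1.19.

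Between the control areas, 5 of the 10 genes were higher in Cb-N than in F/M-N and 4 were lower, against 6745 (40.3%) and 6714 (40.1%) of 16725 genes. The largest differences were those of *Chac1* (log2 fold change −0.93, SE 0.143, adjusted p = 6.4e-6), *Asns* (−0.56, SE 0.0487, adjusted p = 1.3e-9) and *Atf4* (0.30, SE 0.0416, adjusted p = 1.4e-6). Calls of *Hsp90b1* (0.07, adjusted p = 0.032) and *Ddit3* (−0.12, adjusted p = 0.096) were lost when 1 library was left out. For *Hsp90b1* this was F/M-N replicate 3 (adjusted p = 0.15). For *Ddit3* these were F/M-N replicate 1, F/M-N replicate 2, Cb-N replicate 1 and Cb-N replicate 2 (adjusted p up to 0.22). With DESeq2 neither was called (adjusted p = 0.13 and 0.18), and *Ddit3* was not called with library totals (0.44) or no filter (0.17).

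Other genes of these responses were described by role from a list of 97, of which 95 were tested. In Cb, 41 were higher and 20 were lower (median 0.069), beside 29.8% and 27.9% of all genes. In F/M, 14 were higher and 13 were lower (median 0.036), beside 12.8% and 14.4% of all genes. The same shares apply to the counts by role. Of 16 genes of amino acid synthesis and transport, 9 were higher in Cb, none was lower and 7 were not called (median 0.16). Of 12 aminoacyl-tRNA synthetase genes, 8 were higher, 1 was lower and 3 were not called (median 0.099). In F/M these counts were 1 higher and 1 lower of 16, and 2 higher of 12. *Slc7a3*, a cationic amino acid transporter, stood at 1.95, 1.28 and 1.48 CPM in Cb-N and 3.63, 4.27 and 3.56 CPM in Cb-T, with no overlap (1.29, SE 0.174, adjusted p = 3.2e-8). Also higher in Cb were *Phgdh* (0.38, adjusted p = 2.7e-4), the first enzyme of serine synthesis, the glycine transporter gene *Slc6a9* (0.24, adjusted p = 4.4e-9) and the synthetase genes *Sars* (0.29, adjusted p = 3e-11), *Aars* (0.22, adjusted p = 1.8e-9) and *Nars* (0.11, adjusted p = 5.3e-4). *Slc3a2* was higher (0.12, adjusted p = 0.0031), and *Eprs* was lower (−0.07, adjusted p = 0.026) but not called with library totals (adjusted p = 0.38). In F/M *Gpt2*, an alanine aminotransferase, was lower (−0.18, adjusted p = 0.0045), and *Phgdh* (0.23, adjusted p = 0.037), *Sars* (0.11, adjusted p = 0.032) and *Aars* (0.08, adjusted p = 0.053) were higher. These 3 F/M calls were lost without F/M-T replicate 1 or F/M-N replicate 2, and that of *Aars* also without F/M-N replicate 1 or F/M-T replicate 3 (adjusted p up to 0.16, 0.17 and 0.18). *Slc7a3*, *Slc6a9*, *Slc3a2*, *Nars* and *Eprs* were not called in F/M.

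Among 19 further ER chaperone and foldase genes, 7 were higher and 6 were lower in Cb (median −0.0095), and 2 were higher and 5 were lower in F/M (median −0.072). *P4hb*, a protein disulfide isomerase, rose in Cb (0.35, adjusted p = 4e-13) and F/M (0.14, adjusted p = 0.0068), as did *Canx*, the lectin chaperone calnexin (0.19, adjusted p = 8.7e-10, and 0.12, adjusted p = 0.0037). *Calr*, encoding calreticulin, was lower in Cb (−0.10, adjusted p = 7e-4), as was *Sdf2l1* (−0.34, adjusted p = 0.0031). Both were also lower in F/M (−0.10, adjusted p = 0.02, and −0.31, adjusted p = 0.064). There *Calr* lost its call without F/M-N replicate 1 (adjusted p = 0.12), and *Sdf2l1* without F/M-N replicate 1, F/M-N replicate 3 or F/M-T replicate 2 (adjusted p up to 0.26). Of 13 genes of ER-associated degradation, 4 were higher and 5 were lower in Cb, and 3 and 2 in F/M. *Syvn1*, the ubiquitin ligase HRD1, fell in Cb (−0.27, adjusted p = 1.7e-7) and F/M (−0.20, adjusted p = 0.0021), and the ATPase gene *Vcp* rose in both (0.20, adjusted p = 5.3e-6, and 0.17, adjusted p = 0.0016). *Sel1l*, the partner of HRD1, was lower in Cb (−0.13, adjusted p = 9.2e-5) and F/M (−0.09, adjusted p = 0.044), where its call was lost without F/M-N replicate 1 or 2 or F/M-T replicate 1 or 3 (adjusted p up to 0.21). *Edem2* was lower in Cb (−0.14, adjusted p = 0.024) and higher in F/M (0.24, adjusted p = 0.018). Without F/M-T replicate 1 the F/M call of *Edem2* was lost (adjusted p = 0.14), and with library totals its Cb call was lost (adjusted p = 0.12). Of 7 genes of ER translocation and export, 2 were higher and 1 was lower in Cb, and 3 and 1 in F/M, and *Ssr3* was higher in Cb (0.12, adjusted p = 2.9e-4) and F/M (0.08, adjusted p = 0.072), the latter lost without the same 4 libraries as for *Sel1l* (adjusted p up to 0.26).

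Of 10 genes for sensors, eIF2 kinases and phosphatases, 2 were higher and 4 were lower in Cb, and 1 and 2 in F/M. *Eif2ak2*, the eIF2 kinase PKR that binds double-stranded RNA, stood at 9.27, 9.44 and 9.09 CPM in Cb-N and 14.5, 13.4 and 14.5 in Cb-T, and at 7.33, 6.53 and 7.66 in F/M-N and 13.3, 14 and 12.2 in F/M-T. Libraries were apart in both areas, and it was upregulated in Cb (0.62, SE 0.0807, adjusted p = 1.4e-8) and F/M (0.91, SE 0.0885, adjusted p = 3.1e-7). *Atf6b* was lower in Cb (−0.23, adjusted p = 1.4e-5) and F/M (−0.16, adjusted p = 0.027), where its call was lost without F/M-N replicate 3 (adjusted p = 0.14). *Eif2ak1* was not called in Cb (−0.03, 95% interval −0.0965 to 0.0421). Of 8 further transcription factor genes, 5 were higher and 1 was lower in Cb, and 2 were higher in F/M. *Atf3* stood at 2.26, 1.74 and 1.76 CPM in Cb-N and 6.2, 4.71 and 5.14 in Cb-T, with no overlap (1.48, SE 0.155, adjusted p = 5.9e-11). In F/M it stood at 3.21, 2.88 and 3.13 CPM in N and 2.36, 3.35 and 2.7 in T and was not called (−0.10, adjusted p = 0.71). *Creb3* was higher in Cb (0.18, adjusted p = 0.0014) and not called in F/M. *Nupr1* was higher in F/M (0.44, adjusted p = 0.011) and in Cb (0.32, adjusted p = 0.028), where its call was lost without Cb-N replicate 2 (adjusted p = 0.12). Of 10 tested genes for other effectors, 4 were higher and 2 were lower in Cb, and 2 were lower in F/M. *Ddit4* was lower in Cb (−0.25, adjusted p = 2.6e-5) and F/M (−0.20, adjusted p = 0.013), and *Vldlr* was lower in Cb (−0.19, adjusted p = 1.7e-7) and F/M (−0.09, adjusted p = 0.075). The F/M call of *Vldlr* was lost without F/M-N replicate 1 or 2 or F/M-T replicate 1 or 3 (adjusted p up to 0.28).

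For comparison, 5 of 14 cytosolic heat shock genes were higher and 5 were lower in Cb (median −0.036), and 3 and 5 in F/M (median 0.0014). Beside these and the mitochondrial counts below, 29.8% of all genes were higher and 27.9% lower in Cb, and 12.8% and 14.4% in F/M. *Cryab*, a small heat shock protein gene, rose in Cb (0.52, adjusted p = 3.4e-16), and *Bag3*, an HSP70 cochaperone gene, fell (−0.42, adjusted p = 6.5e-9). *Hsp90aa1* rose in Cb (0.15, adjusted p = 3.6e-5) and F/M (0.16, adjusted p = 9.2e-4), and *Hspa4l* fell in both (−0.28, adjusted p = 1.9e-13, and −0.21, adjusted p = 2.3e-4). *Hsp90ab1* was higher in Cb (0.14, adjusted p = 3e-7) and F/M (0.07, adjusted p = 0.027), where its call was lost without F/M-T replicate 1 (adjusted p = 0.12). *Cryab* and *Bag3* were not called in F/M. *Hspa1b* was downregulated in F/M (−0.62, adjusted p = 0.013) and not called in Cb (−0.39, adjusted p = 0.13). Of 8 genes for mitochondrial chaperones and proteases, 5 were higher in Cb and 3 in F/M, with none lower (medians 0.13 and 0.11). *Hspd1*, encoding HSP60, rose in Cb (0.19, adjusted p = 7.2e-5) and F/M (0.21, adjusted p = 5.9e-4), as did *Hspa9* (0.12, adjusted p = 1.1e-4, and 0.15, adjusted p = 0.0014), and *Hspe1* rose in Cb (0.38, adjusted p = 3.2e-4) and was not called in F/M.

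Some calls of the named genes were lost when 1 library was left out. Many of these were lost in more than 1 such fit, and that of *Eif4ebp1* in Cb was lost in all 6. In Cb, genes that lost their call when 1 library was left out included, beside *Dnajb9*, *Atf6*, *Creb3l1*, *Eif4ebp1*, *Hspb1*, *Nupr1*, *Sec61b* and *Sec63*, with highest adjusted p values from 0.12 to 0.36. In F/M, 14 did: *Aars*, *Atf6b*, *Calr*, *Edem2*, *Hsp90ab1*, *Hspb1*, *Phgdh*, *Sars*, *Sdf2l1*, *Sec61a1*, *Sec61b*, *Sel1l*, *Ssr3* and *Vldlr*, with highest adjusted p values from 0.12 to 0.28. With DESeq2 the F/M calls of *Aars*, *Phgdh*, *Sdf2l1*, *Ssr3* and *Vldlr* and the Cb call of *Nupr1* were also lost, with library totals the F/M calls of *Sel1l* and *Vldlr*, with no filter those of *Aars* and *Ssr3*, and with 1 fit of all 12 libraries those of *Aars*, *Hsp90ab1* and *Ssr3*. *Hspb1*, a DEG in F/M (−0.60, adjusted p = 0.077), lost its call there without F/M-N replicate 1, F/M-N replicate 3 or any of the F/M-T libraries (adjusted p up to 0.21), and with DESeq2 (0.24) or no filter (0.1).

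**Figure D3:**
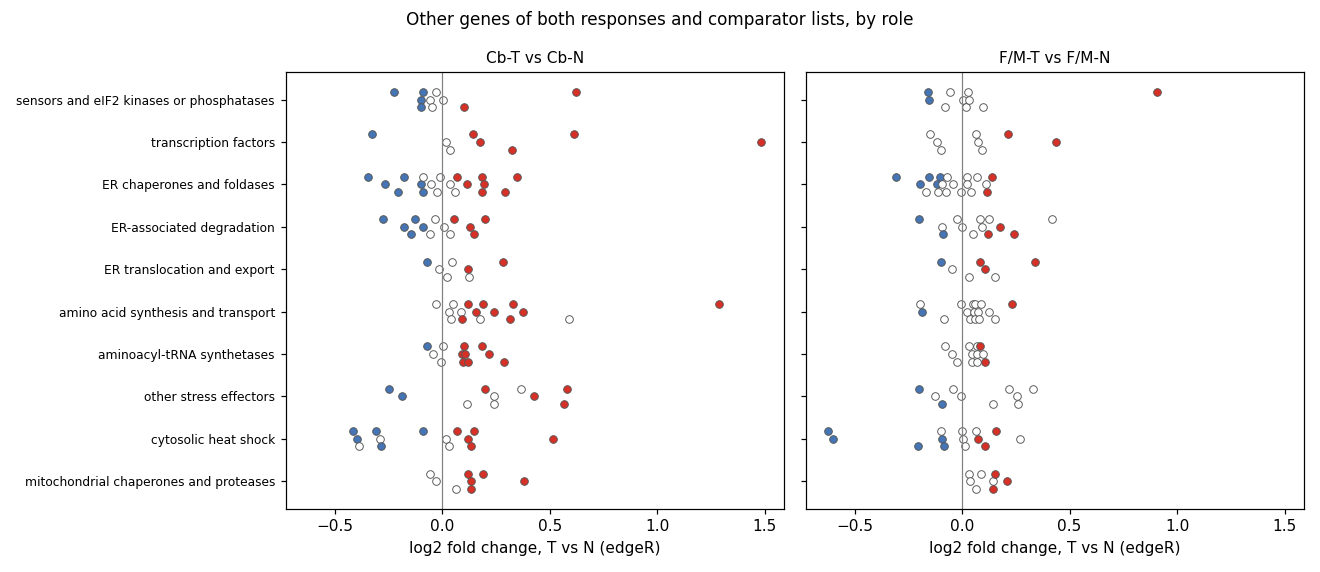
Log2 fold change (edgeR) of T against N in Cb and F/M for the other genes of both responses and the comparator lists, 1 point per gene in rows by role. Points are red if higher, blue if lower and white if not called at FDR below 0.1, and the gene furthest right in Cb is *Atf3* at 1.48.

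Markers of cell types moved between the same groups, and bulk RNA cannot tell fewer cells from less RNA per cell. Beside the marker counts in Cb, here and in the next paragraph, 29.8% of all genes tested were higher and 27.9% were lower. In Cb all 12 microglial genes were higher (summed 159, 160 and 171 CPM in N, 549, 567 and 565 in T). Of 10 astrocyte genes, 9 were higher and 1 was lower (6010, 5980 and 5960 against 7800, 7820 and 7780 CPM, *Aldoc* most abundant). All 9 oligodendrocyte genes were higher (4650, 4630 and 4740 against 6130, 6080 and 6110 CPM, *Mbp* most abundant). Lower in Cb were 6 of 8 granule cell genes (5350, 5420 and 5430 against 4670, 4550 and 4550 CPM, *Cbln3* most abundant) and all 8 Purkinje cell genes (9810, 9750 and 9530 against 7970, 8060 and 7970 CPM, *Itpr1* most abundant). Of 7 general neuronal genes, 3 were higher and 4 were lower (4960, 5010 and 4990 against 4570, 4410 and 4460 CPM, *Snap25* most abundant). Endothelial genes were higher for 5 of 6 (229, 238 and 233 against 266, 264 and 259 CPM, *Flt1* most abundant), choroid plexus genes were 2 higher and 3 lower of 8 (2290, 2280 and 2430 against 2180, 2290 and 2310 CPM, *Ttr* most abundant), and B and plasma cell genes were 2 higher of 3 tested (4.66, 6.05 and 5.19 against 10.8, 11.7 and 10.8 CPM, *Ighm* most abundant).

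Markers of other brain regions moved as well. The 13 hindbrain *Hox* genes summed to 0.488, 0.55 and 0.325 CPM in Cb-N and 14.5, 13.7 and 13.9 CPM in Cb-T, and 10 of the 11 tested hindbrain genes were higher. In Cb-N these sums were 11, 12 and 7 counts, so the tested *Hox* genes passed the filter only through Cb-T. Their direction was fixed by that, and the number higher is no test. *Hoxb5*, *Hoxb6*, *Hoxc4*, *Hoxc5*, *Hoxd3* and *Hoxd4* were at 0 in all Cb-N libraries. Olfactory bulb genes in Cb summed to 56.3, 55 and 57.8 CPM in N and 15.4, 16.5 and 17.1 in T (*Eomes* most abundant, 1 higher and 1 lower of 3 tested). Of the 5 genes on this list, 4 were lower and 1 was higher in Cb-N than in F/M-N, beside 40.1% and 40.3% of all genes. The Cb sum is therefore no measure of olfactory bulb tissue. Serotonin neuron genes summed to 1.6, 1.33 and 1.02 CPM in N and 4.89, 5.31 and 4.89 in T (*Tph2* most abundant, 2 of 2 tested higher). Only 1 serotonin gene was tested between the N groups, so at least 1 of them passed the filter through Cb-T alone, which fixed its direction. Forebrain neuron genes in Cb summed to 175, 169 and 180 CPM in N and 173, 174 and 175 in T (3 higher and 2 lower of 8 tested, *Ppp1r1b* most abundant).

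In F/M, microglial genes were higher for 10 of 12 (459, 455 and 467 CPM in N, 687, 679 and 683 in T) and astrocyte genes for 8 of 10 (5710, 5820 and 5520 against 6420, 6760 and 6380 CPM). Oligodendrocyte genes were 1 higher and 1 lower of 9 (6030, 5930 and 6090 against 6060, 5900 and 6030 CPM), and neuronal genes were 3 lower of 7 (6290, 6240 and 6300 against 5840, 5850 and 5830 CPM). Forebrain neuron genes were 1 higher and 3 lower of 10 (988, 961 and 1010 against 945, 927 and 932 CPM). Serotonin neuron genes were higher for both tested (1.39, 1.53 and 1.23 against 16.4, 15.9 and 16.3 CPM). Only 1 serotonin gene was tested between the N groups, so at least 1 of them passed the filter through F/M-T alone, which fixed its direction. All 5 olfactory bulb genes were lower (40.6, 41.1 and 39.9 against 16.3, 14.8 and 15.5 CPM). Choroid plexus genes were higher for 2 of 8 (650, 609 and 644 against 881, 836 and 853 CPM), endothelial genes for 2 of 6 (210, 213 and 208 against 226, 228 and 215 CPM), and B and plasma cell genes for 1 of 3 tested (24.3, 24.9 and 25 against 28.6, 26.4 and 29.1 CPM). Granule cell genes were 2 lower of 8 (200, 198 and 201 against 181, 182 and 185 CPM), and Purkinje cell genes 3 higher and 2 lower of 7 tested (1140, 1150 and 1070 against 999, 1060 and 995 CPM). *Slc6a5*, the only hindbrain list gene tested, was higher. Beside the marker counts in F/M, 12.8% of all genes tested were higher and 14.4% were lower. The part of these markers in the changes of the stress response genes was not tested.

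Promoters of 300 bases (250 before the RefSeq transcript start and 50 after) were searched on both strands for 4 motifs. The ER stress element was in 2 of the 10 genes (*Hspa5* and *Hsp90b1*), against 37 of 27025 genes (0.137%). Its second form was in 1 (*Herpud1*), against 12 genes (0.0444%). The amino acid or C/EBP-ATF response element was in 4 (*Asns*, *Chac1*, *Herpud1* and *Trib3*), against 1219 genes (4.51%). The unfolded protein response element was in none, against 193 genes (0.714%). A match describes the sequence only. Sequences that hold the motifs before the start (RefSeq, GRCm38.p6) are printed 5' to 3' on the gene's strand with motifs in capitals, to show which element each gene carries. They are *Hspa5* chr2:34772020-34772048 (plus), *Hsp90b1* chr10:86705521-86705668 (minus), *Herpud1* chr8:94386305-94386399 (plus), *Chac1* chr2:119351037-119351068 (plus) and *Asns* chr6:7693214-7693243 (minus).
Hspa5: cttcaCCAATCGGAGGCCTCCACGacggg
Hsp90b1: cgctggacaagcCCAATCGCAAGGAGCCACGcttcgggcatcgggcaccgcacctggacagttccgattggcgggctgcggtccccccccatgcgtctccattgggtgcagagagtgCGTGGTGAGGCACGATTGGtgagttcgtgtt
Herpud1: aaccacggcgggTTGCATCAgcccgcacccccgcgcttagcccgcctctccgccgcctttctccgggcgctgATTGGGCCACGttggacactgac
Chac1: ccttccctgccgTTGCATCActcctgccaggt
Asns: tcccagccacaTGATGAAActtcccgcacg

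Among all genes holding the ER stress element in this window, 18 were tested in Cb, with 4 higher and 8 lower (median −0.064), and 19 in F/M, with 3 higher and 4 lower (median −0.041). For the second form, 8 were tested in each area, with 3 higher and 2 lower in Cb and 1 and 1 in F/M. Genes with the unfolded protein response element were 34 higher and 38 lower of 125 tested in Cb, and 13 and 17 of 126 in F/M. Those with the amino acid or C/EBP-ATF response element were 109 higher and 84 lower of 326 in Cb (median 0.034), and 51 and 60 of 340 in F/M (median 0.012). Beside these motif counts, 29.8% of all genes tested were higher and 27.9% were lower in Cb, and 12.8% and 14.4% in F/M. The medians over all genes were 0.012 in Cb and 0.0078 in F/M.

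Over the 12 libraries, the genes most like each of the 10 in log2 CPM were, with Pearson r, *Lemd3*, *Ap2a2* and *Gnai1* (0.97 each) for *Hspa5*, and *Zrsr1* (0.953), *Gdap2* (0.942) and *Yy1* (0.925) for *Hsp90b1*. For *Dnajb9* they were *Gm9870* (0.943), *Tm2d2* (0.928) and *Gm16861* (0.919), and for *Herpud1* *St3gal3* (0.934), *Dld* (0.933) and *Arpc5l* (0.929). *Xbp1* was closest to *Hnrnpul2* (0.99), *Fxr2* (0.983) and *Pitpnm3* (0.977), *Atf4* to *BB365896* (0.982), *Mcm7* (0.978) and *Rnf167* (0.977), and *Ddit3* to *Uap1l1* (0.977), *Prdx1* (0.964) and *Rack1* (0.963). *Trib3* was closest to *Echdc1* (0.96), *Poll* (0.939) and *Myof* (0.936), *Chac1* to *Neu4* (0.983), *Dnah7a* (0.983) and *Spint1* (0.982), and *Asns* to *Atp6ap2* (0.991), *Fbxw2* (0.99) and *Pnck* (0.99). These values include the differences between areas and genotypes.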

How the data were processed

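The authors deposited raw counts per gene (featureCounts 1.26.1 on STAR 2.5.1b alignments to mm10, per the processing notes) for 12 libraries. The strand setting, use of multimapping reads and annotation release are not given in the sources used here. Groups follow the sample labels. Each T against N comparison used the 6 libraries of its area, Cb-N against F/M-N used the 6 N libraries, and the difference between areas used all 12. Genes passing filterByExpr (minimum count 10, minimum total 15) were TMM-scaled and tested with edgeR 4.0.16 (quasi-likelihood) in R 4.3.3, with Benjamini-Hochberg adjustment over all genes. CPM were scaled over all 12 libraries and each fit over its own, so small changes can differ in sign from the CPM. A floor of 3 counts equals 0.121 to 0.139 CPM. The code was tested on simulated data.

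The 10 genes and the lists were chosen with earlier results of these data known. Other genes were named by rule. From the other genes of both responses and the comparator lists, these were the DEG of each area without overlap of libraries (at most 12 by size), the 2 most abundant genes of each role, and the largest called increase and decrease of each role in each area. The 3 genes most like each of the 10 were also named. Some list genes are not reported here by name, but they are included in counts and sums. Lengths and overlaps used GENCODE M21 exons on GRCm38. Alternatives were DESeq2 1.42.0, limma 3.58.1 (voom), RLE factors, library totals, no filter, a mean count of at least 50, FDR below 0.05, 1 fit of all 12 libraries, a replicate block and leaving out each library.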

Additional observations from a re-analysis of the deposited data

Results flagged for a closer look

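Of 56 named genes, 13 were flagged because the T vs N change differed between Cb and F/M in the test of the difference itself (edgeR, adjusted over all genes), beside 4816 of all 17482 genes (27.5%). Many of the 56 were named for a large called change in 1 area. The values are the Cb change minus the F/M change in log2. Of these, 10 were higher in Cb: *Atf3* 1.6 (adjusted p = 3.2e-6), *Slc7a3* 1.23 (5.3e-6), *Cryab* 0.533 (1.4e-9), *Gpt2* 0.253 (0.003), *Slc6a9* 0.237 (4.1e-4), *P4hb* 0.226 (3.8e-4), *Sars* 0.201 (0.0013), *Aars* 0.156 (0.003), *Canx* 0.0985 (0.034) and *Hsp90ab1* 0.0811 (0.035). The other 3 were lower in Cb: *Bag3* −0.411 (0.0021), *Edem2* −0.365 (0.0023) and *Xbp1* −0.167 (0.017).

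The call of *Canx* was lost without Cb-T replicate 1, Cb-T replicate 3 or F/M-T replicate 3 (adjusted p up to 0.48), and that of *Hsp90ab1* without Cb-T replicate 1 or Cb-T replicate 3 (adjusted p up to 0.61). Both calls were also lost with DESeq2 (adjusted p = 0.17 for *Canx* and 0.2 for *Hsp90ab1*), RLE factors (0.12 and 0.16) and a mean count of at least 50 (0.23 and 0.36). Groups of 3 libraries were too small for a test of single libraries apart from the others.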

How the results depend on the processing

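Of the 8 stress response genes called in Cb and the 3 called in F/M, all kept their direction under all 15 alternatives that gave a value, and 7 and 3 kept their call. Counts over all genes and over the 10 genes left the range of 1.5 times the main count as follows. With DESeq2, F/M had 3011 called genes and 365 DEG. For genes with a mean count of at least 50, DEG numbered 897 in Cb, 259 in F/M and 877 for the difference between areas, as fewer genes were tested, and *Trib3* had no value. Of the 10 genes, those higher in F/M were 2 with library totals and 1 to 2 leaving out 1 library. Those lower for the difference between areas were 2 with RLE, 3 with the mean count filter and 1 to 3 leaving out 1 library, and those higher were 0 to 1.

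Directions reversed only for genes not called. With library totals these were *Herpud1* 0.0289, *Sec61a1* 0.0259 and *Eif2ak1* 0.0152 in Cb, *Hsp90b1* 0.00147 in F/M and *Atf4* 0.00224 for the difference (0.019 with no filter). In F/M, *Cryab* was at −0.000452 (DESeq2), −0.00051 (RLE) and −0.0298 (1 fit of 12 libraries). The 1 fit also gave *Dnajb9* −0.0107, *Slc6a9* −0.0101, *Bag3* −0.0183 and *Eif2ak1* −0.00635. Leaving out 1 library gave, in Cb, *Atf4* −0.00745 to 0.0465 and *Herpud1* −0.0486 to 0.0165. In F/M it gave *Dnajb9* −0.00378 to 0.0714, *Bag3* −0.0556 to 0.0612, *Atf4* −0.0067 to 0.0835, *Cryab* −0.0114 to 0.0206, *Trib3* −0.156 to 0.327, *Eprs* −0.00267 to 0.0568, *Atf3* −0.243 to 0.00904 and *Herpud1* −0.0966 to 0.0236. It gave *Trib3* −0.236 to 0.251 for Cb-N vs F/M-N, and *Atf4* −0.0746 to 0.05 and *Herpud1* −0.035 to 0.103 for the difference. The cause was not tested.

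Of the counts of genes, role lists included, 215 moved by over 1.5 times or to or from 0, and 1475 did not. Of the list medians, 112 moved by more than their SD between T libraries (Cb-N libraries for the control areas), and 668 did not. This SD leaves out the spread among the libraries they were compared with. Over the alternatives, the median in Cb was 0.0252 to 0.116 for the 10 genes and 0.0503 to 0.112 for the list of all roles, while in F/M these were −0.00289 to 0.0536 and 0.00243 to 0.0557. By role, the Cb median was 0.132 to 0.207 for amino acid genes, 0.0838 to 0.142 for synthetases and −0.0294 to 0.0437 for ER chaperones. The share of called genes that were higher moved in Cb from 51.7% to 61.3% with library totals, and in F/M from 47% to 57.2% with library totals and 32.4% with 1 fit of 12 libraries. For the difference it moved from 63.2% to 44.8% with the mean count filter and to 46% or 46.5% without Cb-T replicate 1 or 3. Of all values of the 10 genes under alternatives, 595 kept call and direction, 17 gained a call, 11 lost it and 22 reversed. For the other named genes these were 1490, 16, 124 and 15. The values covered are the 10 genes in all comparisons, the named genes and *Tpp1* in Cb and F/M, and the flagged genes for the difference, a scope set after a first wider table was seen.

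Replicate numbers did not pair libraries: correlations of residuals between equal numbers ran from −0.016 to 0.062. With a replicate block, called genes numbered 9458 in Cb, 5483 in F/M, 13709 for Cb-N vs F/M-N and 5325 for the difference (DEG 1834, 607, 7023 and 1346), 2 of the 10 genes were higher in F/M, and *Asns* was called there (adjusted p = 0.043).

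The p values measure only spread between libraries within groups, which edgeR estimated with information shared over genes. The T against N tests had 41.8 degrees of freedom in Cb and 19.5 in F/M, those borrowed from other genes included. The paper describes 3 mice, taken here as 3 per genotype, without linking libraries to mice. Whether the spread is between mice was not tested. Chi-square per degree of freedom of replicate pairs was 1.27 to 3.37, where 1 is the value for counting error alone. Protein, eIF2 phosphorylation and *Xbp1* splicing were not measured. Levels of *Trib3* rest on few counts.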
